A study of Drosophila melanogaster with 15 samples.

Results

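Nuclear RNA of photoreceptors from male Drosophila melanogaster aged 40 days after eclosion was compared with that of males aged 25 days, using 3 libraries at each age, which are 6 of the 15 libraries of an ageing time course. The comparison covered the last 15 days of the series and used the 9902 of 17558 counted genes with a level above 1 CPM (gene counts scaled to a common library total) in at least 3 of these 6 libraries. Every group, day 25 and day 40 alike, was the same stock, and age was the only difference between groups in the labels. The flies were mutant for w and carried UAS-GFP-Msp300KASH at attP2, a transgene marked with w+mC, and rh1-GAL4 on a chromosome marked with ry506. They were kept at 25 °C in a 12:12 light:dark cycle, with no untreated or driver-free control. The sources used here do not say whether purification, library preparation or sequencing was shared between ages. Such a batch cannot be told apart from age. The KASH domain anchors the green fluorescent protein at the outer nuclear membrane, the rhodopsin 1 driver is active in the outer photoreceptors R1 to R6 and, by the study's account, in some antennal mechanosensory neurons, and tagged nuclei were affinity-purified from the heads of a pool of males per library. The libraries at 10, 20 and 30 days (3, 3 and 2 libraries) entered the fit, which estimated the spread between replicates from all 14 libraries, and 1 day 30 library that the study discarded was left out.

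The outer photoreceptors of the fly eye capture light with rhodopsin 1, stacked in the microvilli of the rhabdomere, and turn it into a voltage change through a Gq protein, phospholipase C and the TRP channels. They release histamine onto neurons of the optic lobe, and their membranes, pumps and light-sensing proteins turn over throughout adult life. Their nuclei hold newly made and retained transcripts, so that a nuclear library reads transcription and processing more than the cytoplasmic pool. Ribosomal protein mRNAs, for example, are made in the nucleus and translated in the cytoplasm, and the mitochondrial transcripts in such a library come from organelles that were carried through the purification.

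The markers of the labelled cell type were present in all 6 libraries. ninaE, which encodes rhodopsin 1, ranged from 28319 to 36446 CPM at day 25 and from 30346 to 51308 CPM at day 40, and trp, the light-activated channel, from 10901 to 14036 CPM and from 14478 to 16554 CPM. Gene counts per library ran from 8406619 to 19819118 at day 25 and from 10169378 to 18515000 at day 40, and 3 counts, the least that was read as a level above 0, corresponded to 0.151 CPM in the deepest and 0.357 CPM in the shallowest of these 6 libraries. Rank correlations of log2 CPM within either age lay between 0.971 and 0.981. Library properties differed between these ages too. For every 100 gene counts, 70.6 ± 4.72 read pairs matched no feature at day 25 (mean ± SD, n = 3) and 50.4 ± 7.25 did at day 40, with no overlap (two-sided exact permutation test, p = 0.1, the smallest that 20 arrangements allow). The other ages ranged from 60.7 to 103 at day 10, 64.2 to 84.6 at day 20 and 111.6 to 111.9 at day 30. This property thus did not change steadily with age. Day 40 replicate 3 stood apart in the clock genes described below, so results are also given without it. Since whole libraries were counted, fewer nuclei of a kind and less RNA per nucleus cannot be told apart.

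At day 40, 34 genes differed from day 25 (edgeR quasi-likelihood test, adjusted p under 0.05), or 0.343% of those tested. Of these, 23 rose (0.232%) and 11 fell (0.111%), and in all 34 the libraries of the ages did not overlap. Such separation was common in general: 1061 genes (10.7%) had all 3 day 40 libraries above all 3 day 25 libraries and 873 genes (8.82%) had all 3 below. At an unadjusted p under 0.05, 1223 genes passed (12.4%), 6.85% of the tested genes with higher and 5.5% with lower levels at day 40. The number of calls was small and unstable. A fit on the 6 libraries alone called 92 genes (0.929%, of which 0.636% were higher and 0.293% lower), 30 of them among the 34, and DESeq2 called 194 (1.96%), among them all 34. Leaving out day 40 replicate 3 left 0 calls by edgeR with 884 genes at an unadjusted p under 0.05, whereas DESeq2 without it called 73 and limma-voom 3, and the 5 remaining libraries fitted on their own gave 152 (1.54%, with 0.929% higher and 0.606% lower), of which 31 were among the 34. Leaving out day 25 replicate 1 also left 0 calls, with 938 genes at an unadjusted p under 0.05. With the number of pairs on no feature as a covariate, edgeR called 2 genes, of which 1 was among the 34. The direction held for all 34 in the edgeR fits without day 40 replicate 3, on the 6 libraries and on the 5 libraries. Since all 34 were separate, these refits of the same libraries could hardly have reversed it.

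**Figure D1:**
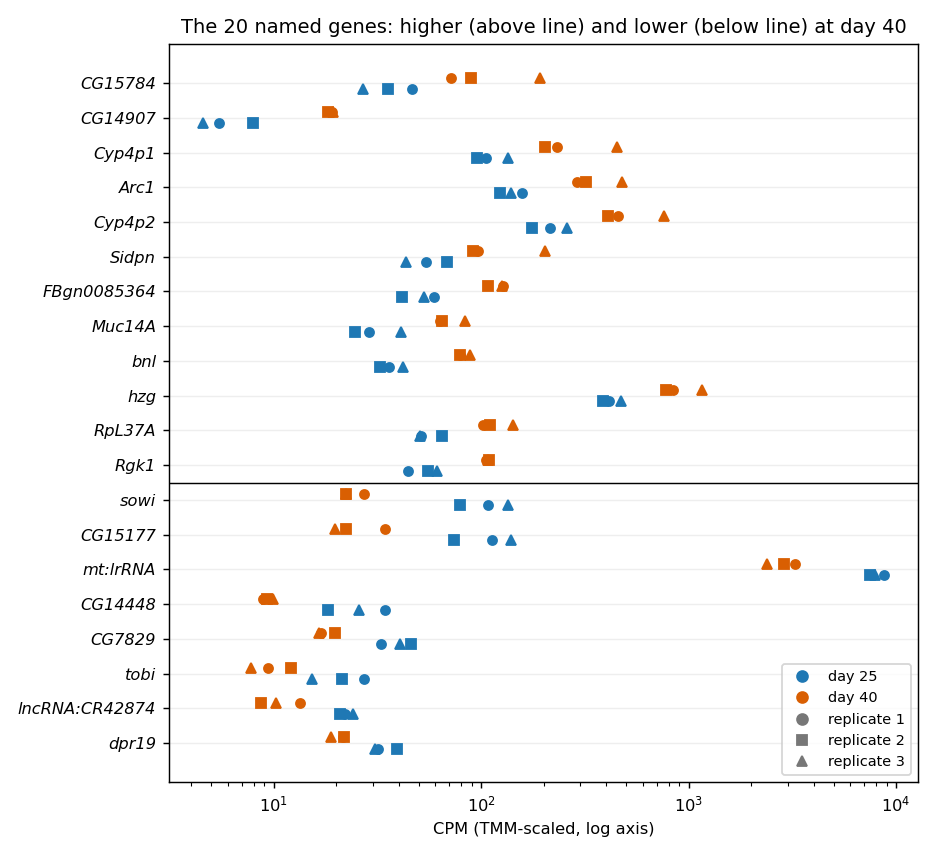
CPM in each of the 6 libraries (horizontal log axis) for the 20 genes past the threshold with a mean of at least 10 CPM that are named by rule, 12 that rose (above the line) and 8 that fell (below it). Blue marks day 25 and orange day 40, and the shape gives the replicate. In every row the blue and orange symbols are separate. Above the line, the day 40 replicate 3 triangle lies farthest to the right in every row except FBgn0085364 and Rgk1. For CG14907 the margin is narrow.

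Among the genes that rose was a secreted growth factor. bnl (branchless, FBgn0014135, chromosome 3R, 19794073 to 19836817, minus strand) encodes the fibroblast growth factor ligand that guides tracheal branching. It was counted at 36.0, 32.5 and 42.1 CPM at day 25 and at 79.0, 78.8 and 88.5 CPM at day 40. All day 40 libraries were above the highest day 25 library, a log2 change of 1.16 ± 0.15 (SE, adjusted p = 0.00773). Its means at days 10, 20 and 30 were 18.6, 24.6 and 39.9 CPM, so the day 30 mean lay within the day 25 range and the day 40 libraries were the highest of all 14. The call held in 19 of 22 alternative fits, with log2 changes from 1.08 to 1.26.

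Arc1 (FBgn0033926, chromosome 2R, 14357927 to 14360297, minus strand) encodes a retrotransposon-derived capsid protein that carries RNA between neurons and muscle. It stood at 157, 124 and 139 CPM at day 25 and at 288, 320 and 477 CPM at day 40. The libraries did not overlap and the log2 change was 1.37 ± 0.21 (adjusted p = 0.0145), with day 40 replicate 3 the highest and a change of 1.12 without it. Its neighbour Arc2, a close paralogue, was low, at 4.08 to 4.74 CPM against 7.49 to 11.8 CPM, and did not pass (log2 change 1.06, adjusted p = 0.334). hzg (herzog, FBgn0036556, chromosome 3L, 15992669 to 16004736, minus strand), a phosphatase, was counted at 414, 386 and 472 CPM and then at 840, 775 and 1161 CPM, again separate (log2 change 1.13 ± 0.18, adjusted p = 0.0147). Without day 40 replicate 3 the log2 change of hzg was 0.93. Rgk1 (FBgn0264753, chromosome 2R, 19311148 to 19356525, minus strand), a small GTPase of the Rad, Gem and Kir family, rose from 44.4, 55.7 and 61.4 CPM to 105, 109 and 108 CPM (log2 change 1.00 ± 0.19, adjusted p = 0.0338), and its day 40 libraries were close to each other.

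A pair of cytochrome P450 genes that lie 209 bp apart on chromosome 2R rose together. Cyp4p2 (FBgn0033395, 9237512 to 9239831, plus strand) was counted at 215, 177 and 259 CPM at day 25 and 456, 410 and 763 CPM at day 40. Cyp4p1 (FBgn0015037, 9240041 to 9242139, plus strand) was counted at 106, 95.6 and 135 CPM and 232, 203 and 452 CPM. In both the day 40 libraries were above those of day 25, by log2 changes of 1.33 ± 0.25 (Cyp4p2, adjusted p = 0.0353) and 1.40 ± 0.25 (Cyp4p1, adjusted p = 0.0338), and replicate 3 was the highest, with log2 changes of 1.00 and 0.96 without it. The genes are close copies, so reads shared between them would have been left out by the counting, and both sit inside hig on the other strand, which stood at 223 to 237 CPM and 189 to 235 CPM. The other 65 tested P450 genes did not pass. Over all 67, 8 were separate and higher and 9 separate and lower (11.9% and 13.4%), near the shares of all genes.

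Of the other named genes that rose, Sidpn (FBgn0032741), a relative of the transcriptional repressor deadpan, was counted at 54.4, 68.2 and 43.4 CPM at day 25 and 97.0, 91.0 and 203 CPM at day 40. Its log2 change of 1.23 ± 0.25 (adjusted p = 0.0423) became 0.76 without replicate 3. Muc14A (FBgn0052580), a mucin gene of chromosome X, went from a mean of 31.4 ± 8.54 CPM (SD, n = 3) to one of 70.3 ± 11.4 CPM (log2 change 1.17 ± 0.24, adjusted p = 0.0438), with the groups apart. CG15784, CG14907 and FBgn0085364, to which no role is given here, rose by log2 changes of 1.70, 1.65 and 1.23. CG14907 was the most even of these, at 5.42, 7.98 and 4.56 CPM against 19.2, 18.2 and 19.3 CPM, whereas CG15784 reached 192 CPM in day 40 replicate 3 and 71.6 and 89.8 CPM in the others. The log2 change of CG15784 was 1.15 without that library. RpL37A is given with the ribosomal protein genes.

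The largest falls by log2 change among the named genes were in sowi and CG15177, neighbours 303 bp apart on the minus strand of chromosome 3R (6626930 to 6627900 and 6628204 to 6629321). sowi was counted at 107, 79.4 and 135 CPM at day 25 and at 27.2, 22.3 and 22.3 CPM at day 40 (log2 change -2.16 ± 0.38, adjusted p = 0.0331). CG15177 was counted at 113, 73.8 and 139 CPM and at 34.2, 22.4 and 19.8 CPM (log2 change -2.10 ± 0.40, adjusted p = 0.0353). At day 25 the third replicate was highest for each, and at day 30 they averaged 153 and 146 CPM, above day 25. Without day 40 replicate 3 the log2 changes were -2.11 and -1.94.

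tobi (target of brain insulin, FBgn0261575, chromosome 3R, 25344761 to 25346921, minus strand) encodes an alpha-glucosidase whose expression follows insulin and glucagon-like signals. It stood at 27.3, 21.5 and 15.2 CPM at day 25 and 9.34, 12.1 and 7.78 CPM at day 40, narrowly separate (log2 change -1.15 ± 0.24, adjusted p = 0.0438, called in 4 of 22 alternative fits). dpr19 (FBgn0032233), of the Dpr family of cell-surface immunoglobulin proteins that pair neurons with their partners, went from 31.9, 39.2 and 30.9 CPM to 21.6, 21.9 and 18.9 CPM (log2 change -0.71 ± 0.15, adjusted p = 0.0438, called in 5 of 22). dpr11, of the same family and named here after its values were seen, rose from 158, 128 and 172 CPM to 291, 238 and 314 CPM (log2 change 0.88 ± 0.15, adjusted p = 0.0259). These members of the Dpr family moved in opposite directions. CG7829, CG14448 and lncRNA:CR42874, to which no role is given here, fell by 1.17, 1.48 and 1.05 on the log2 scale. CG14448 had been higher at day 25 (34.5, 18.4 and 25.7 CPM) than at days 10, 20 and 30 (means 12.9, 15.4 and 12.4 CPM). At day 40 it stood at 8.85 to 9.92 CPM. Day 10 replicate 3 (9.31 CPM) and day 30 replicate 2 (9.16 CPM) lay inside that range.

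Genes for the proteins of the cytosolic ribosome were higher at day 40 as a group, although few passed the test one by one. Of 88 such genes, 80 were tested. RpL37A and RpL40 rose, the other 78 did not pass and none fell. All 3 day 40 libraries lay above all 3 day 25 libraries in 70 of the 80 (87.5%, against 10.7% of all tested genes), and the reverse held for 0. The median log2 change was 0.56 with a range from -0.25 to 1.09, against 0.01 over all tested genes, and 78 of the 80 changes were positive. Small subunit genes (30 of 33 separate, median 0.56) and large subunit genes (40 of 47, median 0.56) were alike in this. All 70 were among the 77 members that averaged at least 10 CPM. The members share the same 6 libraries and are not independent of each other. Their summed level also differed between libraries of the same age, from 8264 to 12248 CPM within day 20. The 70 are therefore not 70 separate results.

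RpL37A, a large subunit protein gene, was counted at 51.6, 64.8 and 51.0 CPM at day 25 and 102, 111 and 143 CPM at day 40 (log2 change 1.09 ± 0.20, adjusted p = 0.0338). Its log2 change was 0.93 without day 40 replicate 3. RpL40, whose product is made fused to ubiquitin, was counted at 59.4 ± 2.41 CPM (mean ± SD, n = 3) and then from 103 to 116 CPM (log2 change 0.90 ± 0.18, adjusted p = 0.0418). RpS19a, of the small subunit, went from 75.1, 86.5 and 74.4 CPM to 135, 150 and 140 CPM and just missed the threshold (log2 change 0.85 ± 0.18, adjusted p = 0.0541). In each of the 3 the groups did not overlap. The smallest changes among the well-measured members were in RpS3A, at 258, 288 and 225 CPM against 277, 332 and 250 CPM, and RpL23, at 71.2, 84.0 and 69.5 CPM against 87.8, 96.4 and 80.8 CPM, where the groups overlapped. The members under 10 CPM, RpLP0-like, RpS5b and RpS15Ab, overlapped as well.

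Together the ribosomal protein genes took 0.923%, 1.10% and 0.803% of gene counts at day 25 and 1.25%, 1.48% and 1.26% at day 40. The mean rose from 0.942% ± 0.149 to 1.33% ± 0.126 (SD, n = 3 each), and the exact permutation p was 0.1, the smallest possible. In TMM-scaled CPM the 3 day 40 libraries lay above the other 11, narrowly, whereas in shares of gene counts they did not. One day 20 library (replicate 1) had 1.29% and a day 30 library (replicate 2) 1.31%, inside the day 40 range, and 29 of the 80 genes (36.2%, against 3.1% of all tested genes) had all 3 day 40 libraries above the other 11 libraries. The fit on the 6 libraries called 18 members higher (0.636% of all genes were), the fit on 5 libraries without day 40 replicate 3 called 27 (0.929%) and DESeq2 called 21 (1.09%), and none was called lower. Without replicate 3 of day 40 the separate members numbered 71 against a background of 16.3%, and leaving out any other of the 6 libraries gave from 70 to 75. The median change was 0.27 when the number of pairs on no feature entered as a covariate, against 0.56 without it; the part of that library property in the result was not tested further. Ribosomal protein genes are short, and among other genes with under 1000 bp of exon 9.6% were separate and higher, against 80.9% of the 47 ribosomal protein genes of that length. These other genes were not matched for level, and the part of length in the result was not tested.

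**Figure D2:**
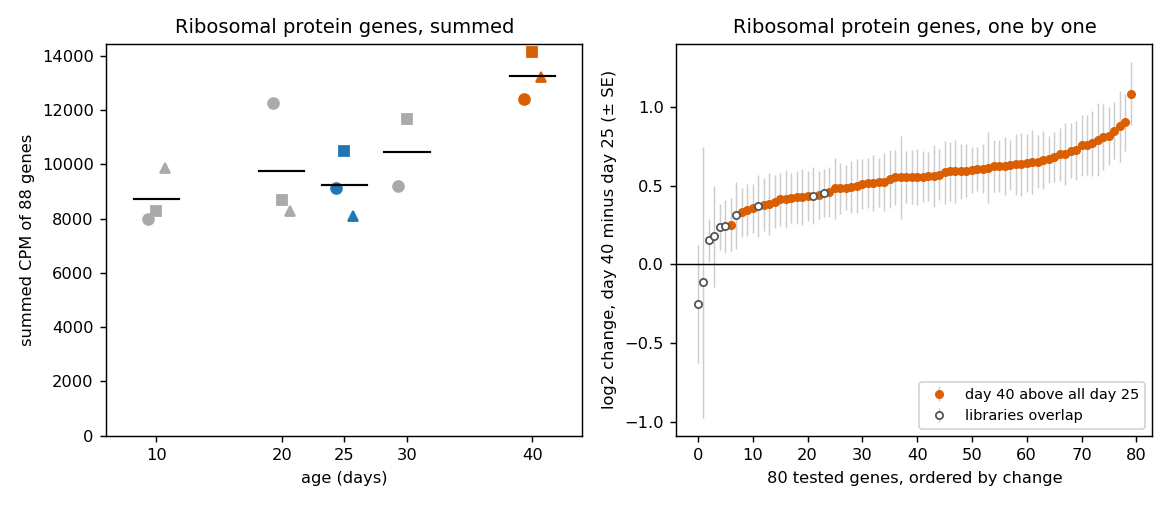
Left, summed CPM of the 88 cytosolic ribosomal protein genes in each of the 14 libraries by age in days (circle, square and triangle for replicates 1, 2 and 3; blue day 25, orange day 40, grey other ages; bars are means). Right, the log2 change from day 25 to day 40 with its SE for each of the 80 tested genes in rising order, filled where all day 40 libraries lay above all day 25 libraries (70 genes). The lowest day 40 library, at 12414 CPM, is just above the highest of the other ages, at 12248 CPM.

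Other genes of protein synthesis and turnover moved less. Of 17 tested aminoacyl-tRNA synthetases, which charge tRNAs with their amino acids, 6 were separate and higher (35.3%, against 10.7% of all tested genes) and 0 lower (against 8.82%), with a median log2 change of 0.28, and none passed the test. GluProRS, for glutamate and proline, was counted at 79.9, 59.6 and 55.4 CPM against 85.7, 91.1 and 110 CPM (log2 change 0.55 ± 0.16, adjusted p = 0.162). Of 21 translation initiation genes 5 were separate and higher and 1 lower (23.8% and 4.76%, median 0.14, or 0.06 with the number of pairs on no feature as a covariate). Proteasome subunit genes showed 8 of 32 separate and higher (25%, median 0.21) and 0 lower, among them Prosbeta2 at 7.68 to 10.2 CPM against 13.5 to 16.6 CPM (adjusted p = 0.167). The proteins of the mitochondrial ribosome, which are encoded in the nucleus, had 11 of 67 separate and higher (16.4%) and 2 lower, a median of 0.16, both lower than in the cytosolic set. No gene of these 4 lists passed the test.

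Among transcripts of the mitochondrial genome, the ribosomal RNAs were lower at day 40 and the messenger RNAs were mixed. mt:lrRNA, the large mitochondrial rRNA (mitochondrial genome, 12735 to 14058, minus strand), was counted at 8777, 7518 and 7902 CPM at day 25 and 3262, 2869 and 2375 CPM at day 40. The highest day 40 library was below the lowest day 25 library, a log2 change of -1.51 ± 0.21 (adjusted p = 0.00798), called in 20 of 22 alternative fits. The mean at day 30 lay between, at 5551 CPM, and day 10 averaged 10840 CPM. mt:srRNA, the small mitochondrial rRNA, went from 1436, 1772 and 1699 CPM to 903, 923 and 660 CPM and missed the threshold narrowly (log2 change -0.98 ± 0.21, adjusted p = 0.0534).

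The messenger RNA mt:CoI, for subunit I of cytochrome oxidase, stood at 1720, 2755 and 2289 CPM at day 25 and 2015, 2292 and 2269 CPM at day 40, fully overlapping (log2 change -0.04 ± 0.19, adjusted p = 0.961). Over the 16 tested mitochondrial genes of 37, 5 were separate and lower (31.2%, against 8.82% of all), 2 were separate and higher, and the median log2 change was -0.16, or -0.28 with the number of pairs on no feature as a covariate. The lower ones were both rRNAs with mt:ND2, mt:ND4 and mt:ND6, all subunits of complex I. mt:ND1, of the same complex, was separate and higher, at 292, 414 and 378 CPM at day 25 and 431, 456 and 417 CPM at day 40 (adjusted p = 0.549), as was the low-count mt:tRNA:Trp-TCA. mt:ND6, the only one of these on low counts, had 18.5, 22.1 and 27.8 CPM at day 25 and 5.55, 3.25 and 0 CPM at day 40 (adjusted p = 0.123). The mitochondrial share of gene counts was 1.57% ± 0.0971 at day 25 and 0.933% ± 0.0725 at day 40 (exact permutation p = 0.1, the smallest possible) and, without mt:lrRNA, 0.754% ± 0.144 and 0.648% ± 0.0462 (p = 0.4). Most of the difference in share was in mt:lrRNA. The library kit removed rRNA sequences, and whether its probes act on mitochondrial rRNA is not given in the sources used here. Nuclear genes for complex I and complex V subunits leaned the other way, with 10 of 44 separate and higher (22.7%, against 10.7% of all tested genes) and 2 lower (4.55%, against 8.82%). Their median log2 change was 0.13, after -0.27 from day 10 to day 25, and none passed the test.

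**Figure D3:**
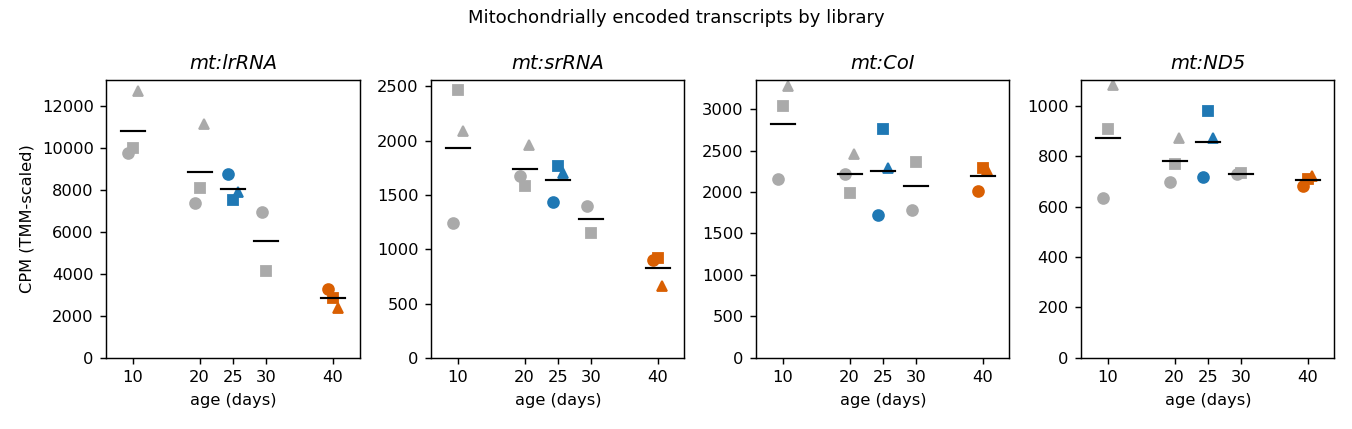
CPM of 4 mitochondrially encoded transcripts in each of the 14 libraries by age in days (symbols as for the ribosomal protein genes, bars are means). The rRNAs mt:lrRNA and mt:srRNA have their 3 lowest libraries at day 40, whereas mt:CoI overlaps between ages and mt:ND5, at 716 to 979 CPM at day 25 and 684 to 722 CPM at day 40, overlaps narrowly.

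Of 24 tested DNA repair genes, 9 were separate and higher (37.5%, against 10.7% of all) and 0 lower, 23 of 24 changes were positive, and the median log2 change was 0.36, or 0.34 without day 40 replicate 3. PolZ1, the catalytic subunit of translesion polymerase zeta, was the member that rose, from 36.6, 27.8 and 29.7 CPM to 48.4, 57.6 and 65.8 CPM (log2 change 0.87 ± 0.16, adjusted p = 0.0338). The gene overlaps Nop17l on the other strand. rad50, of the complex that binds broken ends, was separate at 36.0, 34.6 and 36.2 CPM against 51.3, 55.5 and 47.7 CPM and did not pass (log2 change 0.53 ± 0.13, adjusted p = 0.0877). The end-joining proteins Irbp and Ku80, which together form the Ku ring around a DNA end, had log2 changes of 1.06 ± 0.30 and 0.99 ± 0.33 (adjusted p = 0.144 and 0.215). For Irbp the values were 4.38, 9.56 and 5.88 CPM against 10.9, 10.8 and 19.4 CPM, so that replicate 3 was the highest, and the log2 change without it was 0.72. Ku80 went from 5.27 to 8.81 CPM at day 25 up to 9.73 to 19.4 CPM at day 40, with the highest again in replicate 3. The polymerases PolH and PolQ, which copy past or join damaged DNA, were separate and higher too without passing. The list was chosen with earlier results of these data known. The paper had reported rad50 and Ku80, among other repair genes, as rising with age in these same libraries. The share of separate members is thus a description and not a separate test.

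Antioxidant genes had 7 of 20 separate and higher (35%, against 10.7% of all tested genes) and 2 lower (10%, against 8.82%), with a median of 0.31 and no member past the threshold. Sod1, the cytosolic superoxide dismutase, stood at 18.5, 22.9 and 21.5 CPM against 27.5, 29.0 and 34.2 CPM (log2 change 0.53 ± 0.19, adjusted p = 0.244), and Keap1, which restrains the antioxidant factor cnc, was the member lowest in change at -0.45. Glycolysis genes had 6 of 14 separate and higher (42.9%) and 0 lower, with a median of 0.27 that was 0.01 with the number of pairs on no feature as a covariate. Among these Ldh, lactate dehydrogenase, was counted at 4.88, 4.07 and 3.60 CPM against 15.1 ± 2.99 CPM (mean ± SD, n = 3), separate on low counts (log2 change 1.84 ± 0.55, adjusted p = 0.172). It was called by DESeq2 and in the fit on 6 libraries. Heat shock and chaperone genes split, with 4 of 19 separate and higher and 4 separate and lower (21.1% each, median 0.03). Hsc70-4, the constitutive chaperone, was higher at 1133, 1156 and 969.6 CPM against 1374, 1502 and 2038 CPM (adjusted p = 0.133), and Hsp83, the fly Hsp90, stood at 1859, 1190.3 and 872 CPM against 673, 630 and 891 CPM, with overlap through replicate 3 of each age. Of 7 tested antimicrobial peptide genes, 0 were separate in either direction.

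Of 22 tested phototransduction genes none passed, 3 were separate and higher (13.6%, near the 10.7% of all genes) and 0 lower, and the median log2 change was -0.01, or 0.27 with the number of pairs on no feature as a covariate. ninaE had a log2 change of 0.26 ± 0.21 (adjusted p = 0.678), from 30276, 36446 and 28319 CPM to 30346, 32186 and 51308 CPM, and -0.02 without day 40 replicate 3, which held its highest value. All 7 rhodopsin genes overlapped between the ages. Rhabdomere and polarity genes had 4 of 12 separate and higher (33.3%, median 0.27, 0.14 without replicate 3 and 0.43 with the covariate), led by Cad99C, a cadherin of apical microvilli, and Moe, the moesin that ties actin to the membrane, at log2 changes of 0.54 each (adjusted p = 0.173 and 0.135).

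Of 27 tested synaptic vesicle and active zone genes none passed, 7 were separate and lower (25.9%, against 8.82% of all) and 2 separate and higher, 22 of the 27 changes were negative and the median log2 change was -0.15, or -0.01 with the number of pairs on no feature as a covariate. Sap47, a synapse-associated protein, stood at 854, 837 and 943 CPM against 747, 715 and 723 CPM, separate with close replicates (log2 change -0.27 ± 0.12, adjusted p = 0.367). Syt7, a calcium sensor of vesicle release, was also separate at 290, 264 and 313 CPM against 246, 225 and 237 CPM (log2 change -0.29 ± 0.14, adjusted p = 0.404). Syb, a vesicle fusion protein of non-neuronal membranes, was the highest of the list at a log2 change of 0.54. The paper had already reported Sap47 as falling with age in these libraries, and this list too was chosen with earlier results known. All 14 acetylcholine signalling genes had negative changes (median -0.24, or -0.66 with that covariate), with 2 separate and lower (14.3%) and none past the threshold. Of 11 ion pump and exchanger genes 3 were separate and lower (27.3%, against 8.82% of all) and 0 higher. Their median log2 change was -0.09, or -0.01 with that covariate. Among these nrv3, a beta subunit of the sodium pump, was lowest in change at -0.47 ± 0.16 (adjusted p = 0.23), from 3420.0, 2876 and 3847 CPM to 2618, 2400.9 and 2301 CPM.

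**Figure D4:**
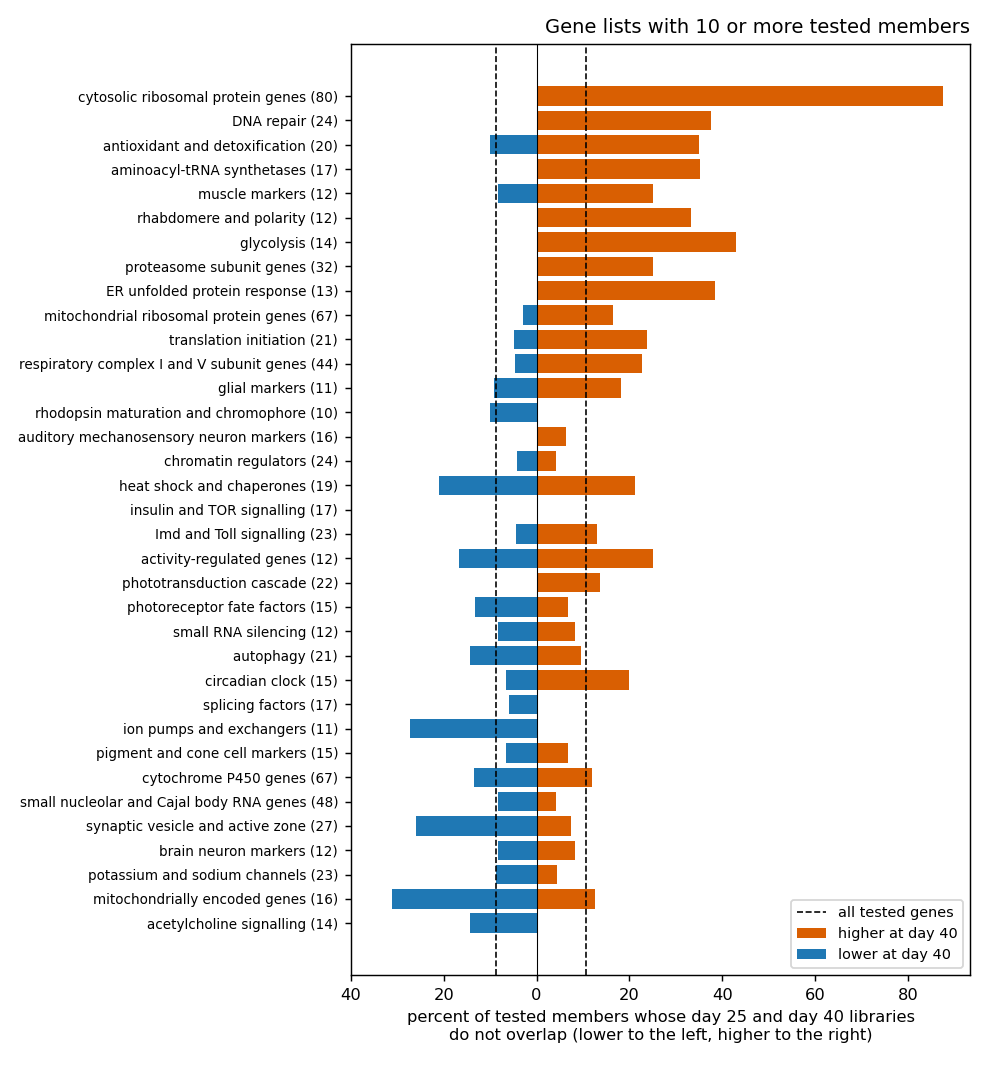
For each gene list with at least 10 tested members (number in brackets), the percent of members whose 3 day 40 libraries all lay above (orange, to the right) or all below (blue, to the left) the 3 day 25 libraries, with lists ordered by median log2 change. Dashed lines give the shares over all tested genes, 10.7% and 8.82%. The ribosomal protein genes reach 87.5%, whereas insulin and TOR signalling has no separate member on either side.

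The clock genes were the clearest case of a single library. per and tim encode the repressors that shut off their own transcription each night, and vri a repressor of Clk. At day 25 per stood at 81.9, 60.9 and 75.6 CPM and at day 40 at 102, 127 and 689 CPM. tim stood at 403, 339 and 397 CPM and then 609, 574 and 4129 CPM. vri stood at 84.2, 83.1 and 86.6 CPM and then 138, 144 and 1008 CPM. Replicate 3 thus stood far above the other day 40 libraries and was the highest of all 14 for each. The log2 changes were 2.07, 2.22 and 2.35 with it (adjusted p = 0.0715, 0.0794 and 0.0726) and 0.65, 0.64 and 0.74 without it. The other 2 day 40 libraries were still above all 3 day 25 libraries for each gene, and the 5 libraries fitted alone called all 3 higher (0.929% of all genes were), while a day 20 library (replicate 1) reached 623 CPM for tim and 165 CPM for vri. Of the remaining clock genes, Pdp1 and cwo were high in day 40 replicate 3 alone (3543 and 298 CPM, against at most 1004 and 69.2 CPM elsewhere). Clk, which encodes an activator of per and tim, was low in that library at 94.8 CPM, against 306 to 490.4 CPM in the other 13. No clock gene passed the test in all 14 libraries.

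Genes that set day 40 replicate 3 most apart from the other day 40 libraries, listed as a description, included further ones with the same profile. Usp8, a deubiquitinating enzyme, stood at 81.6 and 90.5 CPM in replicates 1 and 2 and 654 CPM in replicate 3, against 52.3 to 114 CPM over the other 13 libraries. Cipc, a partner of Clk, stood at 10.7 and 13.9 CPM and 95.4 CPM, against 9.78 to 15.9 CPM elsewhere. Achl was the reverse, at 1130 and 869 CPM and 24.4 CPM, against 436 to 1424 CPM elsewhere. Cyp4g1, the P450 of hydrocarbon-making oenocytes, and Yp1, a yolk protein of female fat body, were high in it (303 and 57.4 CPM) but also in some other library of the series (up to 282 and 52.8 CPM). By the study's methods the flies of every age were harvested in the same late-morning window, and the hour for each library is not given in the labels.

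**Figure D5:**
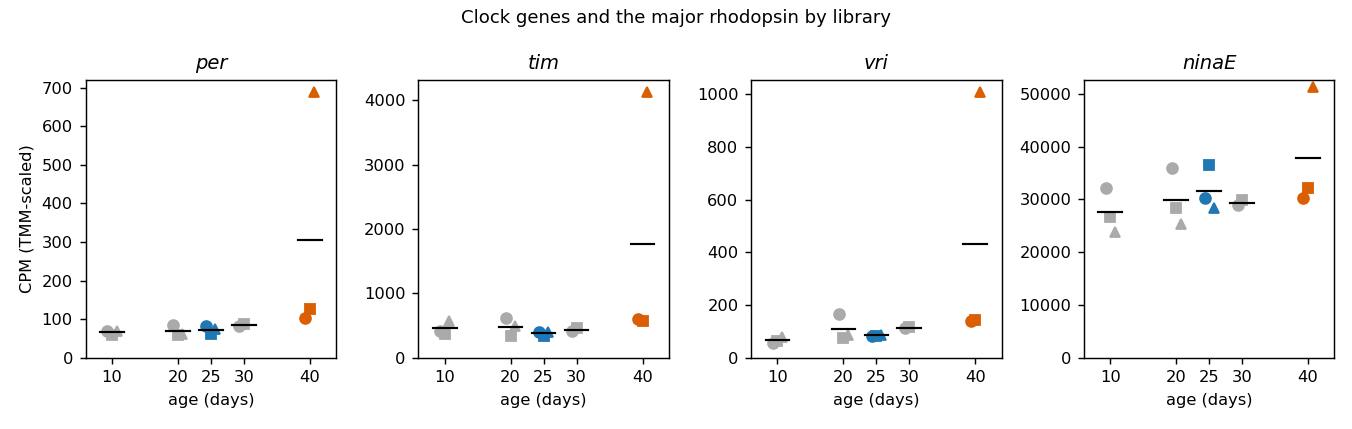
CPM of the clock genes per, tim and vri and of ninaE, the rhodopsin of the outer photoreceptors, in each of the 14 libraries by age in days (symbols as for the ribosomal protein genes, bars are means). Day 40 replicate 3 (orange triangle) is at 689, 4129 and 1008 CPM for the clock genes and at 51308 CPM for ninaE, the highest of all libraries in every panel.

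Activity-regulated genes were mixed. Besides Arc1, Hr38, a nuclear receptor induced by neuronal firing, was separate and lower at 124, 141 and 151 CPM against 28.1, 53.4 and 111 CPM, with replicate 3 near day 25 (log2 change -1.11 ± 0.46, adjusted p = 0.339, and -1.76 without replicate 3). The list had 3 of 12 separate and higher and 2 lower (25% and 16.7%, against 10.7% and 8.82% of all genes), and a median of -0.01. Without replicate 3, 3 were higher and 5 lower (41.7%, against 13.7% of all genes). Hr38 was called in the fit on the 5 libraries without replicate 3.

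Markers of other cells of the head were examined for the same libraries. Summed levels ranged over 694 to 776 CPM at day 25 and 736 to 832 CPM at day 40 for 12 glial markers, 763 to 865 CPM and 777 to 940 CPM for auditory mechanosensory markers, 2022 to 2490 CPM and 2068 to 2528 CPM for muscle markers, and 229 to 304 CPM and 209 to 248 CPM for blood cell markers, all overlapping. The defining markers repo (glia), nompC (mechanosensory neurons) and Hml (blood cells) were above 0 in all 6 libraries. No marker of these lists passed the test, and their separate members were 2 of 11 higher and 1 lower for glia, 1 of 16 higher for mechanosensory neurons, 3 of 12 higher and 1 lower for muscle and 0 of 7 for blood cells, where 10.7% of all genes were higher and 8.82% lower. The fits on 6 and on 5 libraries each called 2 muscle markers higher, the actin gene Act57B and the myosin light chain gene Mlc2, where they called 0.636% and 0.929% of all genes higher. Pigment and cone cell markers summed to between 2022 and 4253 CPM at day 25 and between 1358 and 2088 CPM at day 40, and most of this was w, which the transgene carries as well, at 3669, 1415 and 2177 CPM against 1056, 749 and 1467 CPM (log2 change -1.15, adjusted p = 0.302). For w, day 40 replicates 1 and 2 lay below every day 25 library. Of 15 tested pigment and cone cell markers, 1 was separate and higher and 1 lower. Without day 40 replicate 3, 1 was higher and 3 lower (20%, against 13.7% of all genes). The fit on 5 libraries called 1 of them lower (0.606% of all genes were). Brain neuron markers summed to 2841 to 3208 CPM at day 25 and 2892.5 to 3151 CPM at day 40. For fat body and female markers the sums were 4080 to 5154 CPM and 4135 to 4710 CPM. Of 12 brain neuron markers 1 was separate and higher and 1 lower, and of 8 fat body and female markers 0 and 1. None passed the test, while DESeq2 called 1 brain neuron marker higher (1.09% of all genes were). The part of these cell types in the results was not tested beyond these values.

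The preceding 15 days, from day 10 to day 25, gave 107 genes in the same fit (1.08%), 78 higher (0.788%) and 29 lower (0.293%) at day 25. The comparisons share the day 25 libraries, so only the difference between the spans was tested, and 0 genes passed that test by edgeR, with 762 at an unadjusted p under 0.05 (7.7%), whereas DESeq2 called 25. Values for the spans are given side by side. bnl changed by 0.99 ± 0.16 on the log2 scale from day 10 to day 25 and by 1.16 ± 0.15 from day 25 to day 40, and Arc1 by 1.85 ± 0.21 and 1.37 ± 0.21. hzg changed by 0.99 ± 0.18 and 1.13 ± 0.18. Ribosomal protein genes had a median of 0.06 over the earlier span and 0.56 over the later, and for RpL37A the values were -0.17 ± 0.20 and 1.09 ± 0.20. mt:lrRNA had -0.43 ± 0.21 and then -1.51 ± 0.21. DNA repair genes had medians of 0.30 and 0.36 and synaptic genes -0.22 and -0.15. With no gene past the edgeR test of the difference, none of these is shown to differ between the spans.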

How the data were processed

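The authors trimmed read pairs with Trimmomatic, aligned them with TopHat to BDGP6 and counted pairs over exons with HTSeq in strand-specific mode, per the paper's methods and the submitters' processing notes. The deposited table of raw counts was used after removal of the summary rows (no feature, ambiguous and the like). The authors' filtered counts served only to define a gene set, and their CPM values, which divide filtered counts by the column total, were not tested. Column numbers 1 and 2 could follow either of 2 label series, so those columns were assigned to their age only; replicate numbers here are those of the columns.

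CPM was computed over gene counts with TMM factors, and log2 CPM with a prior count of 2. Genes above 1 CPM in at least 3 of the 6 libraries were fitted with edgeR 4.0.16 (R 4.3.3; glmQLFit, glmQLFTest) on 14 libraries with age as a factor (9 residual degrees of freedom). The contrast was day 40 minus day 25, with Benjamini-Hochberg adjustment over all 9902 genes and a threshold of 0.05. "Separate" means that the 3 libraries of an age do not overlap those of the other in CPM. DESeq2 1.42.0 and limma 3.58.1 (voom) were alternatives. On simulated counts for this comparison, over 9902 genes with 200 changed, 50% of 2-fold and 88% of 4-fold changes were recovered and 4.17% of calls were false. These counts were drawn gene by gene from the spread of the fit itself, with no shift of a whole library. The rates therefore need not hold for the real libraries. Exact permutation tests were two-sided. The p-values measure the spread between libraries of pooled flies of 1 stock.

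Genes were named if they ranked among the 12 largest rises or 12 largest falls in log2 change (all if fewer, here 8 falls) past the threshold with a mean of at least 10 CPM and separate groups, if they were list genes past the threshold, or if they were needed to describe a list. For day 40 replicate 3, the 10 genes farthest from the other day 40 libraries were ranked, and those named are a selection of them. The members and the 44 gene lists were chosen with earlier results of these data known, and 22 of the 604 symbols in the lists were not matched and are not analysed here. Positions and symbols came from Ensembl annotation of BDGP6, which matched 17252 of 17558 genes.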

Additional observations from a re-analysis of the deposited data

How the results depend on the processing

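Over 22 alternative fits, the 20 named genes kept their direction in all 440 values and stayed past the threshold in 263. Naming required separate groups, so refits of the same libraries could hardly reverse a direction. The count of directions is therefore no separate support. Against 34 genes, the fit on 6 libraries gave 92, the DESeq2 test 194 and no filter on low counts 331 (of 15204 tested). The number of pairs on no feature as a covariate gave 2, of which 1 was among the 34. DESeq2 size factors, library size alone, limma-voom and the authors' gene set gave from 25 to 36. So did a filter over 14 libraries and a log2 change of at least 1. Leaving out each library in turn gave from 0 to 37 genes with 14 libraries in the series, and from 9 to 152 with the 6 libraries alone (11 without day 25 replicate 1, 59 without day 25 replicate 2 and 87 without day 40 replicate 1), an alternative added after seeing the data except where day 40 replicate 3 is left out. Without day 40 replicate 3 the count was 0 by edgeR, 73 by DESeq2, 3 by limma-voom and 152 with 5 libraries. For the difference between the spans the count was 0, with DESeq2 25 and from 0 to 5 without a library. For day 25 against day 10 it was 107, with library size alone 200, with DESeq2 400 and from 19 to 249 without a library. Library size alone gave 177 higher and 23 lower there, against 78 and 29.

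The ribosomal protein median of 0.56 was 0.27 with the covariate, and from 0.47 to 0.67 without a library in either set of fits. The mitochondrial share fell by 0.641 percentage points, fell by 0.106 without mt:lrRNA, and fell by 0.586 to 0.679 without a library. Pairs on no feature per 100 gene counts fell by 20.2, and by 16.2 to 23.2 without a library. The cause of these differences between settings was not tested.

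Libraries with the same replicate number at days 25 and 40 did not deviate together (r = -0.03, 0.05 and -0.01 over genes). A link limited to some genes would not show in this correlation, so it cannot decide whether the numbers pair the samples. With the replicate number as a block, day 40 against day 25 gave 15 genes (14 of them among the 34), the difference between the spans 1 and day 25 against day 10 gave 49, while the ribosomal protein median was 0.56.

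With 3 libraries per age, an exact test of a single value cannot go below p = 0.1. Genes near 1 CPM rest on few counts and a call there needs a large change.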
